A study of Mus musculus with 6 samples.

Results

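R-spondins are secreted proteins that raise the sensitivity of cells to Wnt ligands, and Lgr4, Lgr5 and Lgr6 are the leucine-rich repeat receptors that bind them. The group has 7 listed members, the ligands Rspo1, Rspo2, Rspo3 and Rspo4 and the receptors Lgr4, Lgr5 and Lgr6. Members were taken where a gene symbol in the authors' deposited table equals a listed name, which found 4 genes with 1 probe each (Rspo1, Rspo2, Rspo3 and Lgr4). Rspo1 and Rspo2 carry the name in both symbol columns of that table and Rspo3 and Lgr4 in its array column alone. The other 3 genes, Rspo4, Lgr5 and Lgr6, are not in that table, and their probes were found on the arrays through their RefSeq accessions. All 4 genes of the table passed the filter on dim probes, among 21068 genes and unnamed probes tested, while Rspo4, Lgr5 and Lgr6 did not.

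An R-spondin binds an Lgr receptor together with the membrane ubiquitin ligase Rnf43 or Znrf3. Those ligases otherwise mark Frizzled receptors and Lrp5 or Lrp6 for removal from the cell surface, so that their clearance leaves more Wnt receptor available to activate beta-catenin. In the mouse forebrain Rspo1, Rspo2 and Rspo3 are known as transcripts of the cortical hem, a signalling edge of the medial pallium next to the choroid plexus that secretes Wnt and Bmp proteins.

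RNA of the dorsal forebrain, its dorso-medial pallium per the design text, was measured in 3 mutant and 3 control mouse embryos at E11.5 on 1-colour (Cy3) Agilent arrays, 1 embryo per array. The labels call the embryos mutant and control, and give no mutated gene, allele, strain or sex, while the series title names beta-catenin-dependent Wnt signalling and fate decisions of cortical precursors as the subject. Mutant 1 and control 1 shared a litter and slide 1, and litters 2 and 3, each with 1 mutant and 1 control, shared slide 2. Within slide 1 there is thus 1 embryo of each group.

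Of the non-control spots, 65.8 to 67.9% were well above background on the mutant arrays, against 68.7 to 70.1% on the control arrays. Each level is the log2 of a probe's signal over its array's 75th percentile, which was 1207 to 1380.2 in mutants and 1446 to 1833 in controls in intensity units. A level belongs to 1 probe, so levels of different genes are not set against each other. The 3 embryos per group limit the precision of every value. The dissected tissue showed its defining genes: all 12 listed genes of the dorsal telencephalon, among them Emx1 and Pax6, were well above background on all 6 arrays. Control 3 stood apart in genes of neighbouring regions, with a median of -1.99 from the control mean over 7 subpallial genes, against 0.77 to 1.09 in the other controls. In tissue extracts, fewer cells that express a gene and less RNA per cell cannot be told apart.

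Rspo1, an R-spondin known for its part in ovary development, was at 2.82, 2.27 and -3.53 in mutants 1 to 3, against 0.44, 1.54 and 1.51 in controls 1 to 3. Mutants 1 and 2 were thus higher than every control and mutant 3 was far lower than every control. Relative to the control mean, the signal was 3.15-fold in mutant 1 and 2.16-fold in mutant 2, whereas the control mean was 25.9-fold the signal of mutant 3. In processed intensity the 3 mutants read 9293, 6667 and 104.4, against 2488, 4297 and 4106 in the controls, and the probe was well above background on all 6 arrays. The group means were 0.52 ± 3.52 in mutants and 1.16 ± 0.62 in controls (SD, n = 3 each). Their log2 difference of -0.64 (SE 1.71, 95% interval -4.87 to 3.58) missed the threshold in limma over all genes (adjusted p = 0.875), and it was 1.38 without mutant 3 (adjusted p = 0.274, over alternatives 0.274 to 0.959). The probe lies on chromosome 4 from 124686270 to 124686329 on the plus strand in mm9.

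Rspo2, an R-spondin known for its part in limb and lung growth, was at 0.21, -0.13 and -6.88 in mutants 1 to 3, against -7.59, -7.62 and -5.33 in controls 1 to 3. The signal of mutants 1 and 2 stood far over all controls, while mutant 3 lay within the control range. The probe was well above background in all 3 mutants and in control 3 alone among the controls, so that the level of the gene in controls 1 and 2 has only an upper bound. Against control 3, the highest control, the signal was 46.6-fold in mutant 1 and 36.6-fold in mutant 2. In processed intensity the 3 mutants read 1530.2, 1258 and 10.2, against 9.53, 7.53 and 36.0 in the controls. The log2 difference of the means was 4.58 (SE 2.02, 95% interval -0.40 to 9.56) and missed the threshold (limma over all genes, unadjusted p = 0.0653, adjusted p = 0.328). It was 6.88 without mutant 3 (unadjusted p = 0.000403, adjusted p = 0.138, over alternatives 0.132 to 0.565), and 2.99 with normexp background correction, which compresses dim signals. The probe lies on chromosome 15 from 42852727 to 42852786 on the minus strand in mm9.

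Rspo3, which is known for its part in blood vessel and placental development, was at -0.14, 0.25 and -3.43 in mutants 1 to 3, against -1.54, -1.33 and -0.86 in controls 1 to 3. As for Rspo1, mutants 1 and 2 were higher than every control and mutant 3 lower than every control. The signal was 2.14-fold the control mean in mutant 1 and 2.82-fold in mutant 2, and the control mean was 4.56-fold the signal of mutant 3. The probe was well above background on all 6 arrays. The group means were -1.11 ± 2.02 in mutants and -1.24 ± 0.35 in controls (SD, n = 3 each), a log2 difference of 0.14 (SE 0.99, 95% interval -2.29 to 2.57, limma, adjusted p = 0.957). Without mutant 3 it was 1.30 (adjusted p = 0.209), and without control 1, mutant 1 or mutant 2 it was -0.01, -0.35 and -0.54. The probe lies on chromosome 10 from 29172930 to 29172989 on the minus strand in mm9.

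Rspo4, an R-spondin known from nail formation in humans, was well above background on none of the 6 arrays. Its probe read -7.00, -8.57 and -8.86 in mutants 1 to 3, against -9.17, -9.19 and -9.15 in controls. All of these are background readings, and no difference is drawn from them.

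**Figure D1:**
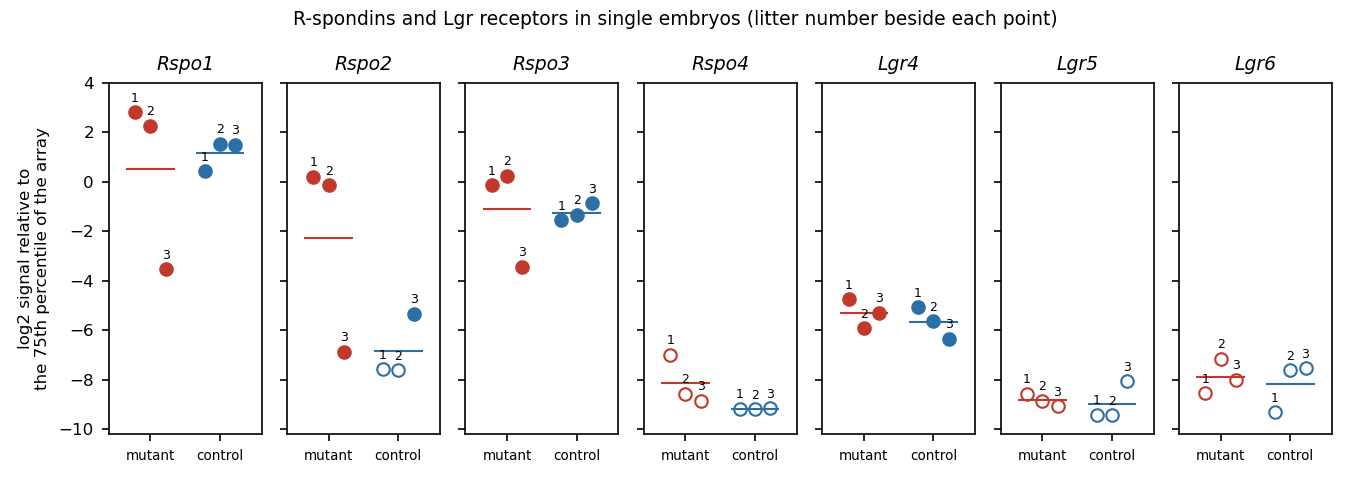
Level of each R-spondin and Lgr gene in single embryos (y axis: log2 signal relative to the 75th percentile of the array; red, mutants; blue, controls; filled points, well above background; open points, not; lines, group means; the digit is the litter). For Rspo1, Rspo2 and Rspo3, mutants 1 and 2 sit above all controls and apart from mutant 3, while Rspo4, Lgr5 and Lgr6 have open points on all 6 arrays.

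Lgr4, the most broadly expressed of the receptors in mouse tissues, was the 1 receptor detected. It was at -4.75, -5.92 and -5.30 in mutants 1 to 3, against -5.07, -5.65 and -6.35 in controls 1 to 3. The groups overlapped, and no embryo stood apart. The signal was dim, with processed intensities of 22.8 to 49.0 in mutants and 17.8 to 54.4 in controls, though well above background on all 6 arrays. The group means were -5.32 ± 0.59 in mutants and -5.69 ± 0.64 in controls (SD, n = 3 each). The group difference was 0.37 on the log2 scale (SE 0.42, 95% interval -0.67 to 1.40), which missed the threshold (limma, adjusted p = 0.692). It was 0.28 with normexp (adjusted p = 0.139, over alternatives 0.139 to 0.982), and ranged from 0.04 without control 3 to 0.67 without control 1. Its probe lies on chromosome 2 from 109853567 to 109853626 on the plus strand in mm9. The sources used here give no exon or untranslated region for the probes.

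Lgr5, a receptor known as a Wnt target and a stem cell marker of the mouse intestine, was well above background on none of the 6 arrays. Its probe read -8.57, -8.86 and -9.09 in mutants, against -9.42, -9.44 and -8.06 in controls. Lgr6, a receptor known from stem cells of the hair follicle, was likewise not well above background on any array, with -8.55, -7.16 and -8.01 in mutants, against -9.33, -7.63 and -7.55 in controls. The readings of both receptors overlapped between the groups, and their levels are bounds only.

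The 250 bases upstream of the annotated start are shown for the detected ligand Rspo1 and the detected receptor Lgr4, which differed in how they varied between embryos. The sequences are RefSeq's, from GRCm38.p6, 5′ to 3′ on the gene's strand, and capitals mark CpG dinucleotides. The reference table holds 4 of the 7 members (Rspo1, Rspo4, Lgr4 and Lgr6).
Rspo1 (chr4:124986180-124986429, plus strand): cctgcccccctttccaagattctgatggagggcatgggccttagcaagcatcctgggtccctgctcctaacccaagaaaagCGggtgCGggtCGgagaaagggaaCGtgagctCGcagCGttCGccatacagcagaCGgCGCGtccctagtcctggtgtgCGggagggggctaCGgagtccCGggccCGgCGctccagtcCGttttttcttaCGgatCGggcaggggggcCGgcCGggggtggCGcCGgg
Lgr4 (chr2:109917397-109917646, plus strand): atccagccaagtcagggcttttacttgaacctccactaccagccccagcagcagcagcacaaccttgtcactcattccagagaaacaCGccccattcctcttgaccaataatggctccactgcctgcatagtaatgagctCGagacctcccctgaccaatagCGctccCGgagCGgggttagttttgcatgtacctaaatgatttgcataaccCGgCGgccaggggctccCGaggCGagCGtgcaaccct
The Rspo1 window holds 22 CpG dinucleotides, the Lgr4 window holds 10, and the median over 32851 promoter windows of the same length was 6. The binding words of the Tcf and Lef factors that act with beta-catenin (CTTTGAA and its variants that end in AT, TA or TT, on both strands) were found in 0 of the 4 member windows and in 14.8% of all windows, which says only that these letters are not in these stretches.

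In the test over all genes, 0 of the 4 measured members passed in either direction (limma, adjusted p under 0.05), and 0 were under 0.05 without adjustment, a level reached by 16.9% of the rows. The number of members at that unadjusted level was 2 with normexp (Rspo2 and Lgr4), 3 without mutant 3 (Rspo1, Rspo2 and Rspo3) and 0 in the other 15 alternatives. The background was low, with 7 of 21068 rows (0.0332%) past the threshold, 2 higher (0.00949%) and 5 lower (0.0237%) in mutants, and 0 with litter as a block (4181 rows at an unadjusted p under 0.05). The mutant and control ranges overlapped for all 4 members, whereas they did not overlap for 24.9% of all rows. In the authors' deposited table, made from the same arrays, the fdr was 0.164 for Rspo2 (log2 ratio 3.39), 0.857 for Rspo1 (-0.48), 0.929 for Rspo3 (0.14) and 0.833 for Lgr4 (0.07), with 3.11% of the 11483 non-control probes that carry an fdr there under 0.05. The unadjusted p of that table was 0.0431 for Rspo2.

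Comparing litter mates gave the same signs for the 3 detected ligands. In litter 1, on slide 1, mutant minus control was 2.38 for Rspo1, 7.80 for Rspo2 and 1.40 for Rspo3. In litter 2 the differences were 0.73, 7.48 and 1.58 for the same genes, and in litter 3 they were -5.04, -1.55 and -2.57. For Rspo2 the values of litters 1 and 2 rest on control readings not well above background. Taken from the lowest level well above background on those control arrays, they were 7.55 and 7.28. Some probes over that level were not well above background, so these values are no strict lower bounds. All 3 ligands were therefore higher in the mutant than in its litter mate in litters 1 and 2 and lower in litter 3. The litter 3 value of Rspo2 rests on a dim mutant reading, at -6.88 against a lowest level well above background of -7.09 on that array. With normexp the litter 3 differences were -0.27 for Rspo2, -4.26 for Rspo1 and -1.95 for Rspo3. Lgr4 did not follow the ligands, with 0.32, -0.27 and 1.05 in litters 1, 2 and 3. Over slide 2 alone the mean differences were -2.15 for Rspo1, 2.97 for Rspo2, -0.49 for Rspo3 and 0.39 for Lgr4.

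**Figure D2:**
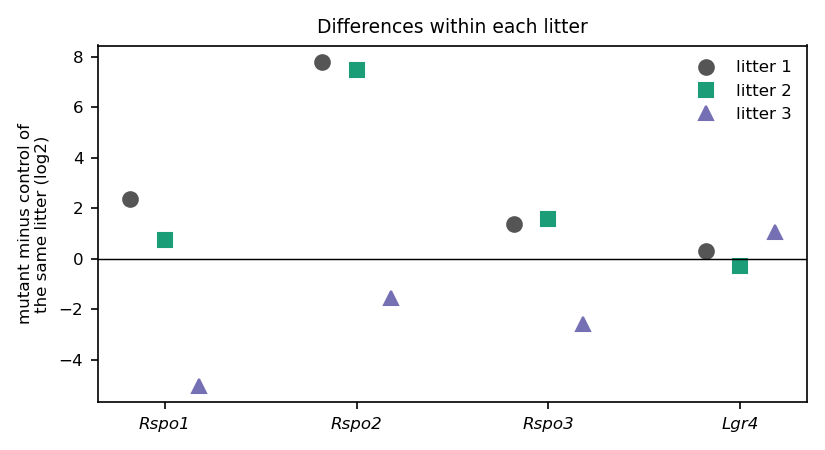
Difference between the mutant and the control of the same litter (y axis, log2) for the 4 genes measured, with 1 point per litter. The points of litters 1 and 2 lie above 0 for Rspo1, Rspo2 and Rspo3, those of litter 3 lie below 0, and Lgr4 shows no such order. The Rspo2 points of litters 1 and 2 are measured against background readings in the control, and that of litter 3 rests on a dim mutant reading.

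The R-spondins were among the genes that varied most between mutant embryos. The SD among the 3 mutants was 4.0 for Rspo2, the largest of all 21068 rows, 3.52 for Rspo1, at rank 4, and 2.02 for Rspo3, at rank 20. The median SD over all rows was 0.156 among mutants and 0.108 among controls. Among the controls the SD was 1.31 for Rspo2, 0.62 for Rspo1 and 0.35 for Rspo3. With normexp background correction, which lowers the spread of dim probes, Rspo1 was at rank 1, Rspo2 at rank 3 and Rspo3 at rank 7. Lgr4, with an SD of 0.59 among mutants and 0.64 among controls, was at rank 1596, and at rank 5864 with normexp. Rank 2 on both scales was held by the hem ligand Wnt8b, chosen after its values were seen, which was at 0.48, -0.12 and -6.15 in mutants 1 to 3, against 0.54, 0.86 and 1.35 in controls. The order seen in Rspo1 and Rspo3, with mutants 1 and 2 over all controls and mutant 3 under all controls, was defined after these values were seen and held for 290 rows (1.38%). These ranks describe 3 embryos and carry no test.

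**Figure D3:**
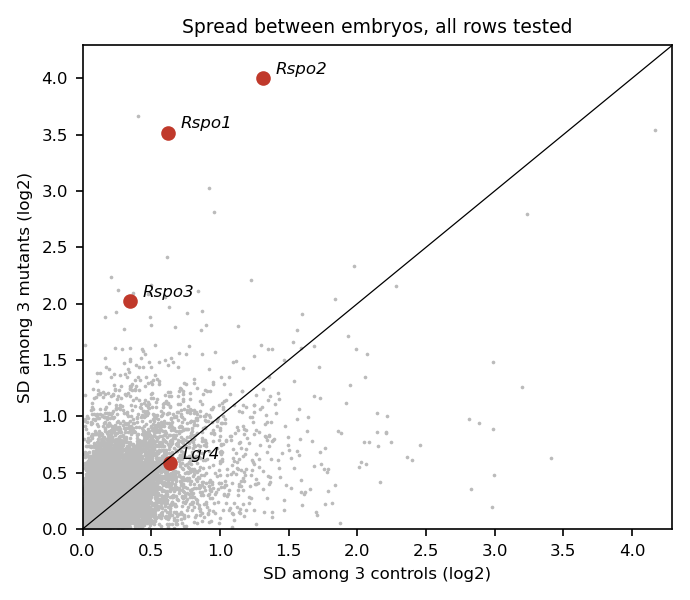
SD among the 3 mutants (y axis, log2) against the SD among the 3 controls (x axis, log2) for each of the 21068 rows tested (grey points), with the 4 measured members in red and the line of equal spread in black. Rspo1, Rspo2 and Rspo3 lie far over the line at SDs of 3.52, 4.0 and 2.02 among mutants, and Lgr4 lies near it.

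By their median, though not in every gene, markers of the cortical hem varied between embryos in the order of Rspo1 and Rspo3. Of 14 listed hem genes other than the members, 12 were tested, and Wnt2b and Wnt3a were not, being well above background on 0 and 1 of the 6 arrays. Measured from the control mean, the median of the 12 genes stood at 1.24, 0.65 and -0.66 for mutants 1, 2 and 3, with controls at 0.13, -0.12 and 0.02. In 6 of the 12 genes mutants 1 and 2 were higher, and mutant 3 lower, than all controls, against 1.38% of all rows. That order was defined from Rspo1 and Rspo3, and the list was chosen with earlier results of these data known. The count is therefore a description and no test. Mutant 3 was the lowest of all embryos in 9 of the 12 genes, against 16.8% of all rows. Among them Wnt9a, a Wnt ligand named after its values were seen, was at -1.25, -1.90 and -4.79 in mutants, against -4.09, -4.42 and -4.21 in controls. All mutants were below all controls in 2 of the 12 genes and above them in 1, against 11.9% and 13% of all rows. The 2 lower genes were Wnt8b and Bmp7, also named after their values were seen. Bmp7 was at 0.14, -0.29 and -1.94 in mutants, against 0.23, 0.26 and 0.66 in controls. The summed scaled signal of the list, in multiples of the 75th percentile, spanned 3.0 to 14.4 in mutants and 6.82 to 8.11 in controls. As for the ligands, 0 of the 12 passed in limma over all genes, with 2 at an unadjusted p under 0.05.

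Markers of adjoining tissue shared parts of this order. The choroid plexus list (8 of 12 genes tested) had medians of 1.27, 0.59 and -0.16 in mutants 1 to 3, against 0.02, 0.04 and -0.02 in controls, with a summed signal of 2.34 to 4.27 in mutants and 0.955 to 2.99 in controls. Its defining transport gene Ttr was well above background in mutant 2 alone, and Kl, Trpm3 and Htr2c in no embryo. The meninges and head mesenchyme (12 of 12 genes) were at 0.93, -0.25 and -0.66 in mutants, against 0.12, 0.03 and -0.19 in controls, with sums of 16.0 to 46.4 and 21.5 to 31.5. The endothelium (9 of 9 genes) was at 0.24, 0.02 and -0.51 in mutants, against -0.11, 0.12 and 0.00 in controls, with sums of 5.92 to 9.07 and 7.39 to 8.73. Mutant 3 was the lowest of all embryos in 9 of the 12 meningeal, 8 of the 9 endothelial and all 7 erythroid genes, but in 3 of the 8 choroid plexus genes, against 16.8% of all rows. The erythroid median was 0.05, 0.02 and -0.90 in mutants, against -0.06, -0.07 and 0.11 in controls. The part of these tissues in the R-spondin levels was not tested.

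Among the remaining lists, the surface ectoderm had the same signs as the hem list. The eye field and microglial medians fell from mutant 1 to mutant 3 as in the hem list, without its signs. The neuronal, dorsal telencephalic, diencephalic and subpallial lists had other orders. The neuronal median (10 genes) was 0.09, 0.44 and 0.51 in mutants 1 to 3, against -0.11 to 0.11 in controls. The dorsal telencephalon (12 genes) was at -0.09, 0.03 and 0.21 in mutants, against -0.04 to 0.06 in controls. That median joins genes of both directions, since all mutants were below all controls in 5 of the 12 and above them in 2. Over all rows these shares were 11.9% and 13%. An unadjusted p under 0.05 in limma was reached by 6, against 16.9% of all rows. The diencephalon list (8 genes) was at 0.42, 0.28 and 0.30 in mutants and between -0.12 and 0.09 in controls. For 5 eye field genes the medians were 1.21, 0.32 and 0.01 in mutants and -0.01 to 0.19 in controls, and for 7 genes of the surface ectoderm 0.19, 0.25 and -0.07, against -0.08 to 0.00. Microglial and macrophage genes (7) were at -0.02, -0.43 and -0.46 in mutants and -0.13 to 0.12 in controls, and subpallial genes (7) at 1.34, 0.85 and 1.56 in mutants and -1.99 to 1.09 in controls. In none of these lists, nor in those of the hem, choroid plexus, meninges, endothelium and erythroid cells, did a gene pass in limma over all genes. The number at an unadjusted p under 0.05 was between 0 and 6 in each list, against 16.9% of all rows.

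**Figure D4:**
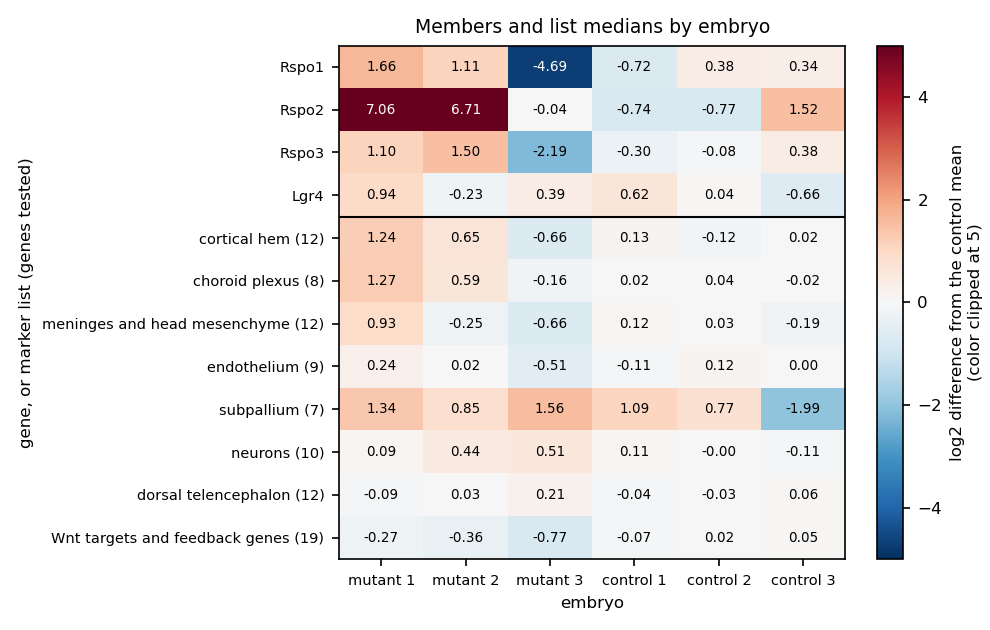
Log2 difference from the control mean in each embryo (columns, mutants left of controls) for the 4 measured members. Under the line are the medians of selected gene lists, with the number of genes tested in brackets. The eye field, surface ectoderm, diencephalon, microglial and erythroid lists are not drawn. Red is higher and blue lower than the control mean, with the color clipped at 5. The hem list is at 1.24, 0.65 and -0.66 in mutants 1, 2 and 3, in the same order of signs as Rspo1 and Rspo3.

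The partners through which R-spondins act, and proteins linked to them, varied less between mutant embryos than Rspo1, Rspo2 and Rspo3. Their largest SD among mutants was 0.91, for the proteoglycan Gpc3, against 2.02 for Rspo3 and 0.59 for Lgr4. The membrane ubiquitin ligases were both lower in mutants without passing the test. Rnf43 was at -3.95, -4.45 and -5.02 in mutants 1 to 3, against -3.79, -4.04 and -3.54 in controls, with the highest mutant below 2 of the 3 controls (log2 difference -0.68, SE 0.29, limma, adjusted p = 0.31). Znrf3 was at -3.93, -3.61 and -3.68 in mutants, against -3.35, -3.47 and -3.34 in controls. Its groups did not overlap, as for 11.9% of all rows in this direction, and the log2 difference was -0.36 (SE 0.10, limma, adjusted p = 0.211). The coreceptor Lrp6 was nearly level, with 1.90, 1.76 and 1.71 in mutants and 1.84, 1.86 and 1.76 in controls (log2 difference -0.03, SE 0.08), and Lrp5 had a log2 difference of 0.14 (SE 0.07).

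Of the 12 coreceptors and Frizzled receptors together, 0 passed over all genes in limma. An unadjusted p under 0.05 was reached by 5, against 16.9% of all rows. The median log2 difference was -0.03, against 0.02 over all rows. That median joins both directions, since all mutants were above all controls in 3 of the 12 genes and below them in 3. Over all rows these shares were 13% and 11.9%. The smallest p were those of Fzd1, Fzd9 and Fzd7, all lower in mutants, and of Fzd8, which was higher. Their log2 differences were -0.82, -0.95, -0.37 and 0.53 (limma, adjusted p = 0.0999, 0.1045, 0.137 and 0.154). Fzd5, named after its values were seen, was higher as well (0.56). Of 8 further proteins that bind R-spondins or link to Lgr receptors, 0 passed and 0 had an unadjusted p under 0.05 (median 0.04). Among them were Sdc4, a syndecan coreceptor of Rspo3 in Xenopus (0.02, SE 0.08), Ndp, the secreted norrin that also binds Lgr4 (0.18, SE 0.19), and Iqgap1, a scaffold bound by Lgr4 (-0.03, SE 0.07). Gpc3, a heparan sulfate proteoglycan, was at 0.86, -0.65 and -0.78 in mutants 1 to 3, against -0.38, -0.65 and -1.05 in controls, with mutant 1 the highest embryo.

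**Figure D5:**
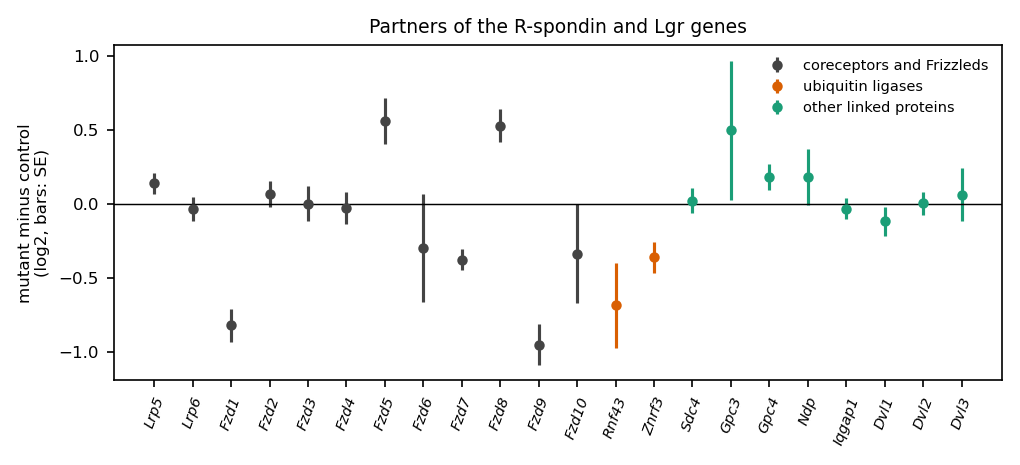
Log2 difference of mutant minus control (y axis, points) with its SE (bars, n = 3 per group) for the coreceptors and Frizzled receptors (grey), the ubiquitin ligases removed by R-spondins (orange) and other linked proteins (green). Both ligases lie below 0, at -0.68 for Rnf43 and -0.36 for Znrf3, while Lrp6 lies at -0.03.

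The Wnt ligands that R-spondins potentiate were measured for 13 of 21 listed ligand and secretion genes. In limma 0 of them passed over all genes and 3 had an unadjusted p under 0.05 (median log2 difference 0.18). Wnt10a had the smallest p, with -5.34, -5.34 and -5.95 in mutants, against -3.89, -3.48 and -2.86 in controls (log2 difference -2.14, SE 0.31, adjusted p = 0.1045). Wnt7a and Wnt11 went the other way, with log2 differences of 0.67 (SE 0.12, adjusted p = 0.136) and 0.44 (SE 0.11, adjusted p = 0.191). In each of these 3 ligands all mutants lay on the same side of all controls, as for 24.9% of all rows in either direction. Over the 13 genes, all mutants were above all controls in 3 and below them in 2, against 13% and 11.9% of all rows. Wls, the carrier needed for Wnt secretion, named after its values were seen, was at 0.31, -0.20 and -1.33 in mutants, against -0.32, -0.44 and -0.18 in controls. Mutant 1 was the highest embryo and mutant 3 the lowest, with mutant 2 within the controls.

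Targets and feedback genes of Wnt signalling lay under the control mean, by their median, in all 3 mutants. Of 19 such genes, 16 had negative differences and 0 passed over all genes in limma. An unadjusted p under 0.05 was reached by 10, against 16.9% of all rows. The median log2 difference of the 19 genes was -0.47. Their median stood at -0.27, -0.36 and -0.77 for mutants 1, 2 and 3, with controls at -0.07, 0.02 and 0.05, so that mutants 1 and 2 were under all controls here and over all controls in Rspo1, Rspo2 and Rspo3. Sp8, a zinc-finger factor of the medial pallium, was at 0.73, 0.63 and 0.75 in mutants, against 1.29 to 1.53 in controls (log2 difference -0.74, SE 0.09, adjusted p = 0.0905). Tnfrsf19, which encodes a TNF-type receptor, and Trabd2b, a membrane protease that cleaves Wnt proteins, had the smallest p (log2 differences -1.36 and -0.91, adjusted p = 0.0546 each). Lef1 had a p close to that of Sp8 (log2 difference -1.07, SE 0.13, limma, adjusted p = 0.0905). The mutant embryos were close in these genes, with SDs of 0.07 to 0.19. They were further apart in Sp5, a transcription factor, and Wif1, a secreted Wnt inhibitor, both named after their values were seen. Sp5 was at -3.87, -4.42 and -7.17 in mutants, against -1.31 to -0.72 in controls. Its reading in mutant 3 was not well above background and gives only an upper bound. Wif1 was at -4.08, -5.05 and -6.18 in mutants, against -1.97 to -1.38 in controls. Mutant 3 was the lowest embryo in 13 of the 19 genes.

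Of 5 other receptors with a leucine-rich repeat ectodomain like that of the Lgr proteins, Tshr, the thyrotropin receptor, was tested and Fshr, Lhcgr, Rxfp1 and Rxfp2 were not. Tshr was at -4.04, -3.88 and -3.90 in mutants, against -5.30, -4.87 and -4.99 in controls. All mutants lay over all controls, as for 13% of all rows, and the log2 difference of 1.11 (SE 0.13) missed the threshold (limma, adjusted p = 0.0822).

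The genes closest to each member in pattern were ranked by Pearson's r over the 6 arrays, which compares the shape of a profile and not its size. For Rspo2 the closest named gene was Bmp6, a Bmp ligand of the hem (r = 0.991), at -3.12, -3.33 and -6.55 in mutants, against -7.73, -7.57 and -6.34 in controls, with 1 of 3 controls well above background. It was followed by Paqr7, Nckap5l, Gja4 and Rfxank (r = 0.983 to 0.991). For Rspo1 these were Dennd2c, Gimap5, Comp, Pdk1 and Kdr (r = 0.982 to 0.9955), of which Kdr, the vascular endothelial growth factor receptor, was at 1.37, 1.28 and 0.74 in mutants, against 1.15, 1.34 and 1.29 in controls. For Rspo3 they were Eef2, Arl5b, Zfp316, Tbc1d10a and Pdgfrl (r = 0.9745 to 0.989), and for Lgr4 Gipc1, Septin6, Chkb, Zfp764 and Mc4r (r = 0.985 to 0.998). Apart from Bmp6, Comp and Mc4r, these profiles spanned under 1 log2 unit, far less than the ligands. Rspo1 and Rspo3 had an r of 0.955 with each other, Rspo1 and Rspo2 0.586, and Rspo2 and Rspo3 0.75. With 6 arrays from shared litters and slides, between 24 and 63 rows exceeded an r of 0.95 with each member, and these values are a description only.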

How the data were processed

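Total RNA of the dorsal forebrain of single embryos was hybridised to 1-colour arrays (Agilent design 026655, grid build mm9). Each deposited scanner file holds spot intensity on a linear scale, background-subtracted within the array by Agilent Feature Extraction 10.7.3.1, per the file headers, with flags of 0 or 1. The authors' deposited table gives log2 values, log2 ratio, ratio and p-value for 27269 non-control probes and an fdr for 11483 of them, and the sources used here do not give the step that made its log2 values. The submitters' processing notes name limma without version. The columns of that table were used by group only.

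Outlier spots were left out, spots of a probe averaged, and log2 processed signals scaled to the 75th percentile of the array (non-control spots). A probe was kept when flagged as well above background in 3 or more arrays (26849), and the brightest probe of a gene used (21068 rows). Probes were named by accession in a GRCm38.p6 table, or else by the deposited symbols. Groups were compared with limma 3.58.1 (R 4.3.3; lmFit, eBayes, Benjamini-Hochberg, threshold 0.05, two-sided). Calls were tried first on simulated data with independent noise and no litter or slide effect, unlike the real arrays. There 75% of changes of log2 size 1 and 91% of size 2 were recovered, and 8.79% of calls were false. Litters pair the samples per the titles, and litter mates' deviations from their group's mean had r of 0.308, 0.357 and 0.107. Members and lists were chosen with earlier results of these data known. All members, up to 4 genes of smallest p per pathway list, those tied to R-spondins and the 5 most similar genes per member are named; other names are marked as chosen after their values were seen. Alternatives were normexp (offset 50, median signals), quantile and median scaling, 2 filters, 2 probe rules, a block for litter or slide, robust variance with trend, the authors' log2 values and omission of each embryo. Ranks of spread under normexp were added after seeing the data.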

Additional observations from a re-analysis of the deposited data

How the results depend on the processing

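In limma 0 of the measured members passed under each of the 17 alternatives, and with the filter on all 6 arrays Rspo2 was no longer tested. Litter as a replicate block (adjusted p = 0.348 for the smallest of the 4) changed no call of a member. The sign turned for Rspo1 without mutant 3 (1.38) and for Rspo3 without control 1 (-0.01), mutant 1 (-0.35) or mutant 2 (-0.54), so that the signs of these mean differences rest on single embryos. Leaving out single embryos gave -1.79 to 1.38 for Rspo1 and -0.54 to 1.30 for Rspo3. The log2 difference of Rspo2 stayed positive, from 2.99 with normexp to 6.88 without mutant 3, and that of Lgr4 from 0.04 to 0.67. The 7 genes called over all rows became 149 with normexp (77 higher), 143 with trend and robust variance, 23 with the filter on all 6 arrays, 22 with median centring, 22 with the authors' log2 values, 15 with quantile normalization, 2 with probes averaged per gene, and 0 without a filter, with litter as a replicate block or with slide as a block. Without each embryo in turn the count was 0 to 1. The cause of these changes was not tested. Dim signals limit Lgr4 and the controls of Rspo2, and Rspo4, Lgr5 and Lgr6 were not measurable over background.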
